A study of Mus musculus with 6 samples.

Results

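The oocyte Fbxw genes on mouse chromosome 9 were followed in RNA-Seq libraries of fully-grown oocytes (FGOs) at the germinal vesicle (GV) stage, in which the nucleus is still intact and the first meiotic division has not resumed. The members were Fbxw13, Fbxw14, Fbxw15, Fbxw16, Fbxw18, Fbxw19, Fbxw20, Fbxw21, Fbxw22 and Fbxw28. They were chosen by gene symbol from the table of expression values, which lists 24255 genes, and all 10 were present and passed the filter on low values used below.

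The study compared WT oocytes with oocytes of Lsm14b-KO females, with 3 libraries per genotype and 20 oocytes per library. LSM14B, the product of Lsm14b, belongs to the LSM14 proteins, which bind RNA and act in mRNA storage and translational repression. For mouse oocytes the study proposes that LSM14B probably acts mainly by promoting translation of a certain class of mRNAs, and not by repressing it. Per the study's methods, the knockout allele is a germline reporter-tagged insertion (Lsm14b tm1a, homozygous) on a C57BL/6J background, so every cell of the animal carried it and not the oocyte alone. Both groups had been given 5 IU of PMSG, a hormone that drives follicle growth, 46 h before collection. Age is not given in the labels, and they do not say whether the libraries of a group came from separate animals, so the p-values below measure the spread between libraries, which may be technical.

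F-box proteins are the substrate-recognition subunits of SCF ubiquitin ligases. In an SCF ligase the cullin CUL1 forms a scaffold, RBX1 recruits the ubiquitin-conjugating enzyme, and the adaptor SKP1 holds the F-box protein, which in turn picks the protein to be marked for degradation. The Fbxw subfamily pairs the F-box with WD40 repeats, the part that binds the substrate in well-studied members such as FBXW7 and BTRC. The chromosome 9 genes are a rodent expansion of closely related copies known for transcription in the oocyte, and the substrates of most of them are not established.

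In GENCODE vM21 (GRCm38, the assembly of mm10) the 10 genes lay in one row on the minus strand of chromosome 9, between 109139447 and 109702700. Along the chromosome the order was Fbxw21, Fbxw13, Fbxw20, Fbxw14, Fbxw28, Fbxw22, Fbxw16, Fbxw19, Fbxw15 and Fbxw18. Fbxw24 lies between Fbxw15 and Fbxw18, and Fbxw26 and Fbxw27 follow Fbxw18, so that the whole row of 13 listed Fbxw genes spanned 651 kb and ended at 109790670. Each of the 13 is annotated as protein coding with 10 exons in the transcript used here, and the 10 members covered 15.7 to 26.0 kb each. The transcripts of the 13 genes were 1483 to 1835 bases long with 1359 to 1407 coding bases, and their GC content ran from 43.4% to 45.7%.

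The stretch just upstream of the transcription start was also alike among the copies. RefSeq promoter sequences of GRCm38.p6 were matched for 8 of the 10 members, with none for Fbxw13 and Fbxw22. Over 200 bases of these promoters the 28 pairs had 53.5% to 96.0% identity, with a median of 77.9%. Windows of 140 bases are shown for 4 members, because they carry the highest level (Fbxw15), the closest pair (Fbxw14 and Fbxw28) and the exception to a shared motif (Fbxw20). All are on the minus strand, read 5′ to 3′ towards the start of transcription, at chr9:109287677-109287816 for Fbxw14, chr9:109339660-109339799 for Fbxw28, chr9:109568263-109568402 for Fbxw15 and chr9:109234755-109234894 for Fbxw20. Capitals mark the motifs CAGCTG and TTTAAA.
Fbxw14: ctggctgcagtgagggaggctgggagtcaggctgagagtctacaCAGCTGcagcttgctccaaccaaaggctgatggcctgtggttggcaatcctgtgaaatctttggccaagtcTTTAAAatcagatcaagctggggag
Fbxw28: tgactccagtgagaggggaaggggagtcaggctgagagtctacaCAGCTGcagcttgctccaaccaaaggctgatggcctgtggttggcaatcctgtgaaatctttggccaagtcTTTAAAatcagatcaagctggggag
Fbxw15: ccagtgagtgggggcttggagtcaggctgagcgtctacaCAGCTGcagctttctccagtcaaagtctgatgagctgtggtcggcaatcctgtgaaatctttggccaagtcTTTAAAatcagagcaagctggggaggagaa
Fbxw20: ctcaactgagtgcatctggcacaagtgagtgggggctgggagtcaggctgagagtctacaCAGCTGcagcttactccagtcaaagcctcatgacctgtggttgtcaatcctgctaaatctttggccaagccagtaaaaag

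The motifs were searched on both strands over the 250 bases before the start, in the members and in all promoters alike. The 50 bases after the start were not searched. CAGCTG and TTTAAA were picked after the sequences had been seen. CAGCTG is an E-box, the kind of site that basic helix-loop-helix factors such as FIGLA bind, and was present in 8 of 8 members and in 12.8% of all 27025 promoters. TTTAAA was present in 7 of 8 members, all but Fbxw20, and in 12.1% of all promoters. TATAAA, the core of the TATA box, was in 0 of 8 (12.97% of all), and TAATTG, a homeobox core like that bound by NOBOX, was in 0 of 8 (7.34% of all). None of the motifs overlapped another in the windows shown. The longest run shared by the 8 promoters was AAATCTTTGGCC, which lies downstream of the marked CAGCTG. It was found in 11 of the 27025 promoters (0.0407%), of which 10 belonged to Fbxw genes of the same row, the 8 members with Fbxw24 and Fbxw26. These matches describe the letters in the windows and are no evidence of binding.

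Values were FPKM, fragment numbers corrected for the length of the transcript and the size of the library, so levels of different genes can be set side by side. For Lsm14b itself the WT libraries gave 2.77, 3.98 and 1.72 FPKM, and the Lsm14b-KO libraries gave 0, 0 and 0.102 FPKM. The FPKM of all genes summed to 1141324 to 1244182 in the WT libraries, to 1029728 in Lsm14b-KO replicate 1, and to 564671 and 676656 in replicates 2 and 3. Lsm14b-KO replicate 1 therefore stood nearer to the WT libraries than to the other Lsm14b-KO libraries, and the main results below are also given without it. All 12 oocyte markers reached 1 FPKM in at least 1 library, with a summed level of 14044 to 15154 FPKM in WT and 13050 to 16201 FPKM in Lsm14b-KO, most of it from Ooep, Oosp1 and Gdf9. Of these markers Nobox, which encodes an oocyte homeobox factor, was called higher, at 10.5, 10.5 and 16.5 FPKM in WT and 46.3, 98.9 and 52.3 FPKM in Lsm14b-KO (log2 fold change 2.25 ± 0.36 SE, limma adjusted p = 0.00640), and the other 11 were not called. Bmp15, Nlrp5, Zp2, Zp3, Zp1 and Mos had estimates above 0 (1.25, 1.47, 1.12, 0.65, 0.39 and 0.19) with overlapping groups. Their values in Lsm14b-KO replicates 2 and 3 lay above every WT library. Gdf9 and Zar1 also had estimates above 0 (0.34 and 0.23). Oosp1, Figla and Ooep had estimates below 0 (-0.71, -0.10 and -0.08), and for Oosp1 every Lsm14b-KO library was below every WT library. Of 12 cumulus and granulosa cell markers, 3 reached 1 FPKM, and Amh, Cyp11a1, Foxl2, Inhba and Ptx3 were listed at 0 in every library. Their summed level was 9.91 to 13.6 FPKM in WT and 6.17 to 10.2 FPKM in Lsm14b-KO, most of it from Cyp19a1, the aromatase gene, which was called lower (8.26 to 11.5 FPKM in WT and 3.00 to 5.76 FPKM in Lsm14b-KO, limma adjusted p = 0.0426). Fshr, the receptor of follicle-stimulating hormone, was at 0.349 to 1.68 FPKM in WT and 1.82 to 2.07 FPKM in Lsm14b-KO (limma adjusted p = 0.0923). The part of these markers in the results below was not tested. The 6 listed red blood cell genes were all at 0.

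In WT oocytes the 10 Fbxw genes were among the most abundant transcripts. They ranked between 14 and 173 of all listed genes in the WT libraries and together made up 5.59% ± 0.14 (SD, n = 3) of all FPKM. Only oocytes were profiled, so restriction of these genes to the oocyte cannot be read from these data. Fbxw15 had the highest WT mean, 14283 ± 1634 FPKM (SD, n = 3). Fbxw28 followed at 12483 ± 793 and Fbxw14 at 10595 ± 771 FPKM (SD, n = 3 each). A middle group held Fbxw16 (6211 ± 218), Fbxw21 (6209 ± 369), Fbxw19 (5655 ± 201) and Fbxw18 (5652 ± 286 FPKM; SD, n = 3 each). Fbxw20 (2038 ± 113), Fbxw22 (2030 ± 115) and Fbxw13 (1097 ± 84.4 FPKM; SD, n = 3 each) were lowest. Between neighbours in this order, the WT values of Fbxw15 and Fbxw28, of Fbxw16 and Fbxw21, of Fbxw19 and Fbxw18, and of Fbxw20 and Fbxw22 overlapped, and those of the other neighbours did not.

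**Figure D1:**
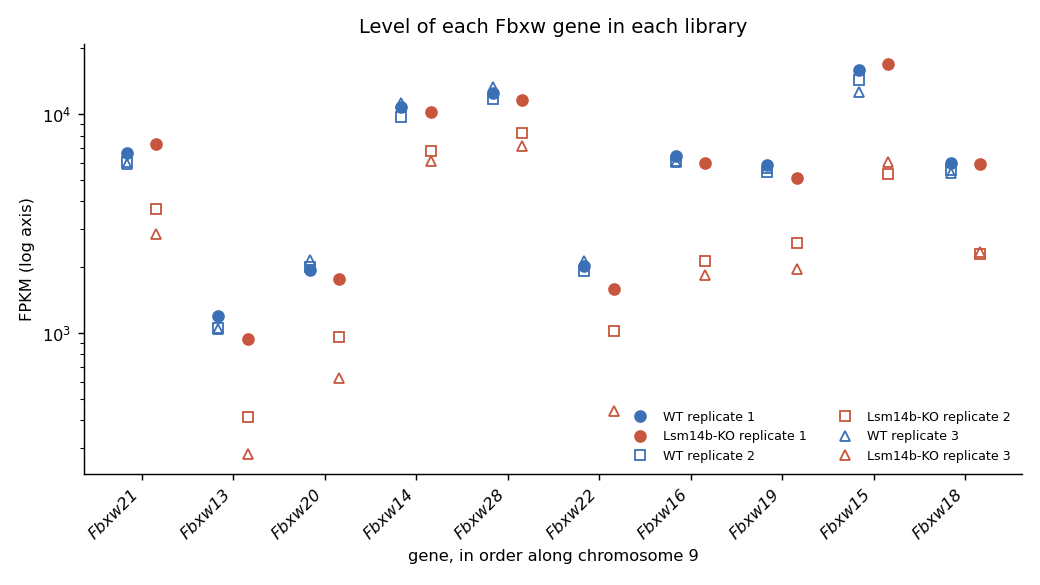
FPKM of each of the 10 Fbxw genes on a log axis, with the genes in their order along chromosome 9, WT libraries in blue, Lsm14b-KO libraries in red and a symbol per replicate. Lsm14b-KO replicate 1 (filled red circles) sits at or near the WT points for every gene, and replicates 2 and 3 sit below all WT points, as for Fbxw13 (413 and 279 FPKM against 1042 to 1194 FPKM in WT).

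How the copies could be told apart by the reads bears on these levels. Coding sequences of the 45 pairs of members were 78.0% to 94.6% identical, with gaps counted as differences and a median of 83.3%. Fbxw14 and Fbxw28 were the closest pair at 94.6%, or 97.4% over the aligned bases alone, and Fbxw14 and Fbxw22 came next at 92.3%. At the read length of 150 bases, 30.2% of all stretches of the Fbxw14 transcript were also present letter for letter in Fbxw28, and 36.0% of those of Fbxw28 in Fbxw14. Fbxw16 shared 4.90% of its stretches with the antisense gene Gm42494 and Fbxw15 shared 1.49% with the antisense gene Gm42756, and no stated use of strand lets reads from such partners be told apart. The other 6 members shared no stretch of 150 bases with another gene. For stretches of 50 bases the shared part was between 7.41% for Fbxw18 and 67.6% for Fbxw14. The single values of Fbxw14 and Fbxw28 are therefore uncertain, since reads could be assigned to either, while their sum and the sum of the whole row are less exposed to this.

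The summed level of the 10 genes was lower in 2 of the 3 Lsm14b-KO libraries and at the WT level in the third. In the WT libraries the sum was 69272, 63951 and 65533 FPKM, and in the Lsm14b-KO libraries it was 67596, 33433 and 29754 FPKM. The groups overlapped, because Lsm14b-KO replicate 1 lay within the WT range at 1.02 times the WT mean, against 0.505 and 0.449 times for replicates 2 and 3. The means were 66252 ± 2733 FPKM in WT and 43594 ± 20868 FPKM in Lsm14b-KO (SD, n = 3 each), a difference of -0.70 on the log2 scale with all libraries and of -1.07 without Lsm14b-KO replicate 1. With Fbxw24, Fbxw26 and Fbxw27 added, the difference of the sum over the 13 genes was also -0.70. Since each library pooled oocytes, fewer oocytes with the transcripts and less transcript per oocyte cannot be told apart. FPKM is scaled to the size of the library, so an amount of transcript per oocyte cannot be read from it.

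As a share of the library, the same sum did not move in one direction. The 10 genes took 5.57%, 5.46% and 5.74% of all FPKM in the WT libraries and 6.56%, 5.92% and 4.40% in the Lsm14b-KO libraries. Replicates 1 and 2 of Lsm14b-KO were above every WT library and replicate 3 was below every one. The mean shares were 5.59% ± 0.14 and 5.63% ± 1.11 (SD, n = 3 each), which differed by -0.0099 on the log2 scale, or by -0.13 without Lsm14b-KO replicate 1. The lower sums in FPKM thus went along with the lower total FPKM of replicates 2 and 3, and the part of that total in them was not tested.

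**Figure D2:**
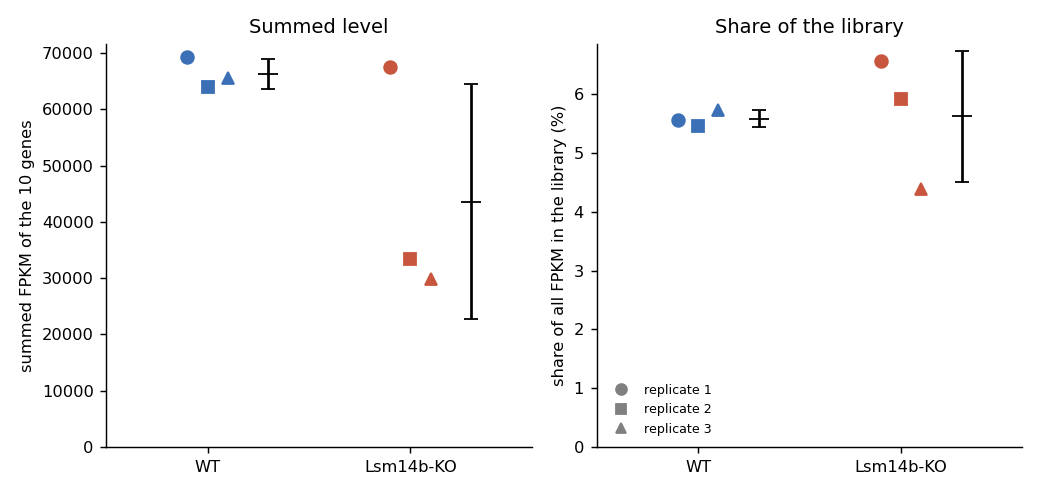
Summed FPKM of the 10 Fbxw genes (left) and its share of all FPKM in percent (right) for each WT and Lsm14b-KO library, with a symbol per replicate and the mean ± SD (n = 3) in black beside each group. On the left, Lsm14b-KO replicates 2 and 3 (33433 and 29754 FPKM) lie well below the WT libraries, and on the right their shares (5.92% and 4.40%) lie on either side of them.

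Gene by gene, no member passed the test between Lsm14b-KO and WT. With limma on log2(FPKM + 1) over 6398 tested genes, 0 of 10 members had a Benjamini-Hochberg adjusted p under 0.05 (0.0884 to 0.297), against 21.6% of all tested genes in either direction and 15.2% called lower. At an unadjusted p under 0.05, 5 of 10 were lower (Fbxw13, Fbxw16, Fbxw19, Fbxw20 and Fbxw22), against 23.7% of all tested genes. The Lsm14b-KO libraries lay below all WT libraries in 6 of 10, these 5 and Fbxw28, against 26.0% of all tested genes. All 10 estimates were below 0, as were 53.2% of those of all tested genes, and the median was -0.88 for the members and -0.08 for all tested genes. Standard errors of the members ran from 0.26 to 0.46 on the log2 scale.

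The members with the lowest estimates were Fbxw13, Fbxw22 and Fbxw16. Fbxw13 was at 1194, 1054 and 1042 FPKM in WT and at 936, 413 and 279 FPKM in Lsm14b-KO, a log2 fold change of -1.20 ± 0.45 (SE; limma adjusted p = 0.0884). Fbxw22 was at 2024, 1918 and 2147 FPKM in WT and at 1588, 1025 and 439 FPKM in Lsm14b-KO, a log2 fold change of -1.18 ± 0.46 (SE; limma adjusted p = 0.0990). Fbxw16 was at 6461, 6104 and 6067 FPKM in WT and at 5998, 2128 and 1836 FPKM in Lsm14b-KO, a log2 fold change of -1.12 ± 0.45 (SE; limma adjusted p = 0.105). In all 3 genes every Lsm14b-KO library was below every WT library, for Fbxw16 by a small margin in replicate 1 (5998 against 6067 FPKM). Replicate 1 was the highest of its group, and for Fbxw22 replicate 3 was set apart from replicate 2 as well. Fbxw20 was at 1948, 2000 and 2164 FPKM in WT and at 1773, 963 and 624 FPKM in Lsm14b-KO (log2 fold change -0.99 ± 0.40 SE, limma adjusted p = 0.106). Fbxw19 was at 5848, 5447 and 5669 FPKM in WT and at 5134, 2571 and 1959 FPKM in Lsm14b-KO (log2 fold change -0.93 ± 0.38 SE, limma adjusted p = 0.106). The groups did not overlap for either gene, although replicate 1 of Lsm14b-KO was close to the lowest WT library in both.

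In Fbxw18, Fbxw15 and Fbxw21 the groups overlapped. Fbxw18 was at 5968, 5578 and 5410 FPKM in WT and at 5912, 2306 and 2349 FPKM in Lsm14b-KO (log2 fold change -0.83 ± 0.40 SE, limma adjusted p = 0.154). Fbxw15 was at 15877, 14360 and 12611 FPKM in WT and at 17072, 5333 and 6086 FPKM in Lsm14b-KO (log2 fold change -0.79 ± 0.44 SE, limma adjusted p = 0.209). Fbxw21 was at 6629, 6065 and 5934 FPKM in WT and at 7343, 3696 and 2843 FPKM in Lsm14b-KO (log2 fold change -0.54 ± 0.37 SE, limma adjusted p = 0.297). For Fbxw15 and Fbxw21, Lsm14b-KO replicate 1 was the highest of all 6 libraries, while replicates 2 and 3 were below every WT library.

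Fbxw14 and Fbxw28, the pair closest in coding sequence, had the estimates nearest 0 among the members. Fbxw14 was at 10845, 9730 and 11210 FPKM in WT and at 10243, 6766 and 6134 FPKM in Lsm14b-KO (log2 fold change -0.49 ± 0.28 SE, limma adjusted p = 0.214). Fbxw28 was at 12478, 11693 and 13279 FPKM in WT and at 11597, 8232 and 7203 FPKM in Lsm14b-KO (log2 fold change -0.50 ± 0.26 SE, limma adjusted p = 0.192). The groups overlapped for Fbxw14, whereas for Fbxw28 every Lsm14b-KO library was below every WT library, by a small margin in replicate 1.

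Without Lsm14b-KO replicate 1, 10 of 10 members were called lower, against 28.7% of the 6280 genes tested in that fit. The log2 fold changes then ran from -1.69 for Fbxw13 and -1.65 for Fbxw16 to -0.71 for Fbxw14 and -0.70 for Fbxw28, with limma adjusted p from 0.00022 to 0.0113. This fit has 2 Lsm14b-KO libraries, and leaving out a library of either group other than Lsm14b-KO replicate 1 gave 0 calls among the members. Replicate 1 was singled out from these same data and was the highest Lsm14b-KO library for every member. Leaving it out therefore lowers the group and narrows its spread, and the calls are no separate evidence. With all libraries brought to an equal FPKM total (TPM), 0 of 10 members were called, against 20.6% of all tested genes, and 3 estimates moved above 0 (Fbxw14, 0.20; Fbxw28, 0.20; Fbxw21, 0.15). That scaling moved the median of all tested genes from -0.08 to 0.40, and the members' median stood at -0.19, which is -0.59 relative to all tested genes. With TPM scaling and without Lsm14b-KO replicate 1 together, 3 of 10 members were called lower (Fbxw13, Fbxw15 and Fbxw16), against 13.8% of all tested genes.

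**Figure D3:**
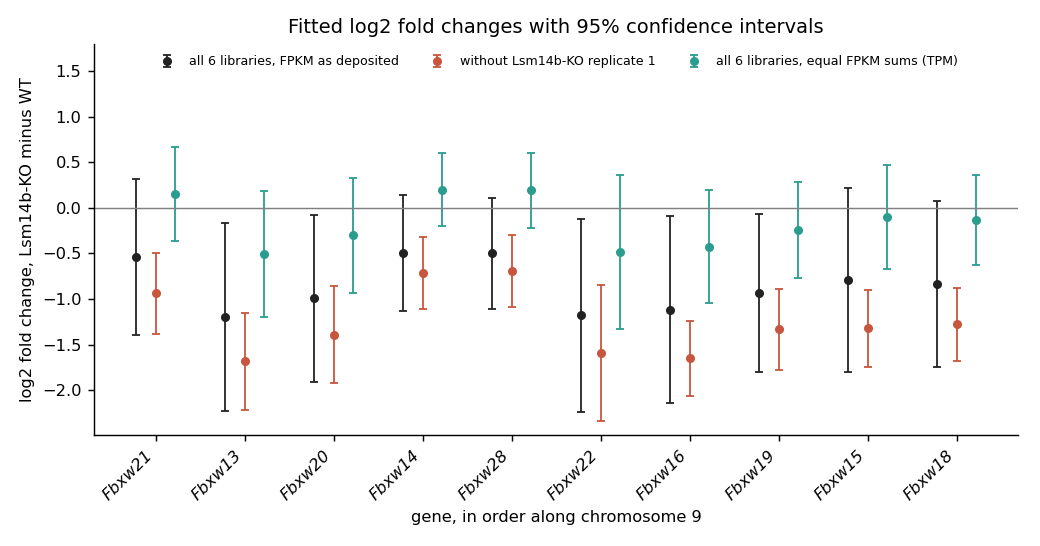
Log2 fold change (Lsm14b-KO minus WT) of each of the 10 Fbxw genes with its 95% confidence interval from limma, with all 6 libraries (black), without Lsm14b-KO replicate 1 (red) and with all libraries at equal FPKM sums (TPM, green). Every black estimate is below 0, the red intervals lie wholly below 0, and all green intervals span 0.

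The members with the highest WT level had the estimates nearest 0, with a Spearman rho of 0.77 between WT mean and log2 fold change across the 10 genes, which share all libraries and are not independent. Fbxw15, the most abundant, went against this order. Other abundant genes had like values. Of 166 tested genes that were no members and whose mean reached that of the lowest member (820 FPKM), 42 (25.3%) were called lower and 0 higher, against 975 lower (15.2%) and 408 higher of all 6398 tested genes. Of the 166, which include Fbxw24, Fbxw26 and Fbxw27, 147 had an estimate below 0, and the median log2 fold change was -0.86. Without Lsm14b-KO replicate 1, 120 of the 166 were called lower and 5 higher, with a median of -1.25, against 1800 lower and 1152 higher of all 6280 genes in that fit.

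The make-up of the sum differed between the libraries. Fbxw14 and Fbxw28 together were at 23323, 21424 and 24489 FPKM in WT and at 21840, 14998 and 13337 FPKM in Lsm14b-KO, a log2 difference of -0.50, or -0.70 without Lsm14b-KO replicate 1. The other 8 members together were at 45949, 42527 and 41044 FPKM in WT and at 45756, 18434 and 16416 FPKM in Lsm14b-KO, a log2 difference of -0.84, or -1.31 without Lsm14b-KO replicate 1. As a share of the summed members, Fbxw28 took 18.0%, 18.3% and 20.3% in WT and 17.2%, 24.6% and 24.2% in Lsm14b-KO, with replicates 2 and 3 above WT and replicate 1 below it. Fbxw13 took 1.72%, 1.65% and 1.59% of the sum in WT and 1.39%, 1.24% and 0.938% in Lsm14b-KO. The shares of Fbxw13, Fbxw16 and Fbxw19 were lower in every Lsm14b-KO library than in any WT library, and those of the other 7 members overlapped between the groups.

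**Figure D4:**
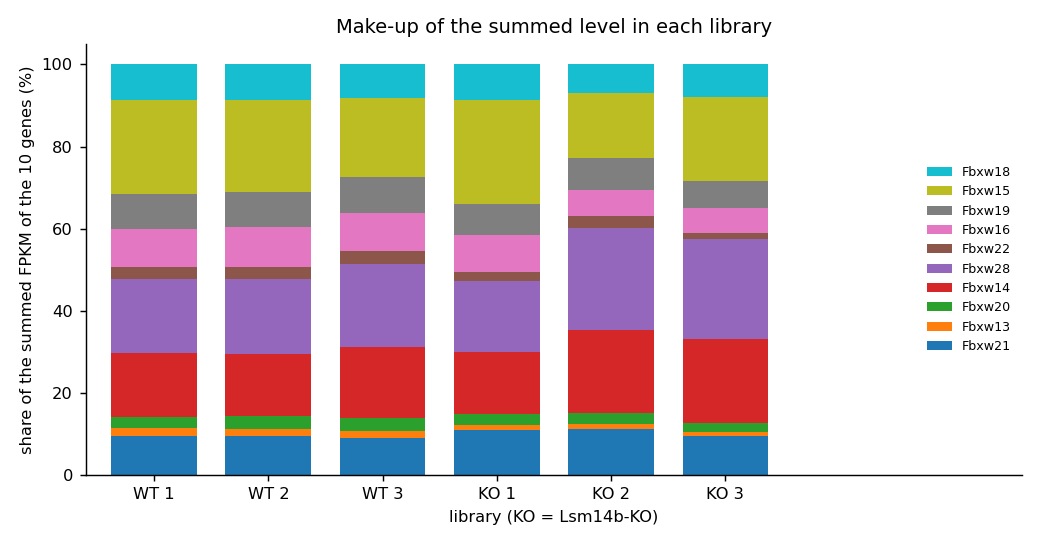
Share of each of the 10 Fbxw genes in their summed FPKM, in percent, for the 3 WT and 3 Lsm14b-KO (KO) libraries as stacked bars, in the order of the genes along chromosome 9. Fbxw14 (red) and Fbxw28 (purple) take wider parts in KO 2 and KO 3, where Fbxw28 reaches 24.6% and 24.2%, than in the other libraries.

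Ratios within a library do not depend on its total. The ratio of Fbxw28 to Fbxw14 was 1.15, 1.20 and 1.18 in WT and 1.13, 1.22 and 1.17 in Lsm14b-KO, the narrowest range of the ratios computed. Reads shared by this pair could be assigned to either gene, and their part in this ratio was not tested. Fbxw28 to Fbxw13 was 10.4, 11.1 and 12.7 in WT and 12.4, 19.9 and 25.8 in Lsm14b-KO, so that replicate 1 fell within the WT range and replicates 2 and 3 above it. Fbxw28 to Fbxw22 was 6.16, 6.10 and 6.18 in WT and 7.30, 8.03 and 16.4 in Lsm14b-KO, above WT in each library. Fbxw15 to Fbxw28 was 1.27, 1.23 and 0.950 in WT and 1.47, 0.648 and 0.845 in Lsm14b-KO. Fbxw28 was thus above Fbxw15 in WT replicate 3 and in Lsm14b-KO replicates 2 and 3. These ratios were picked after the levels had been seen and were not tested.

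The likeness of the members' profiles across the 6 libraries was measured as the root-mean-square (RMS) difference of their centred log2 values, where 0 means the same profile. It ran from 0.035 for Fbxw14 and Fbxw28 to 0.502 for Fbxw14 and Fbxw22, with a median of 0.272 over the 45 pairs. The part of reads shared by Fbxw14 and Fbxw28 in the value of 0.035 was not tested. The next closest pairs were Fbxw19 with Fbxw20 (0.094), Fbxw15 with Fbxw18 (0.110) and Fbxw13 with Fbxw16 (0.124), none of which share a stretch of 150 bases. Across the 45 pairs, coding identity and RMS difference had a Spearman rho of -0.13, given as a description because the pairs share genes and libraries. Fbxw14 and Fbxw22, the second closest pair by sequence, had the most different profiles. The members closest to the profile of the sum were Fbxw21 (0.107), Fbxw18 (0.120) and Fbxw19 (0.136), and Fbxw22 was farthest (0.392).

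**Figure D5:**
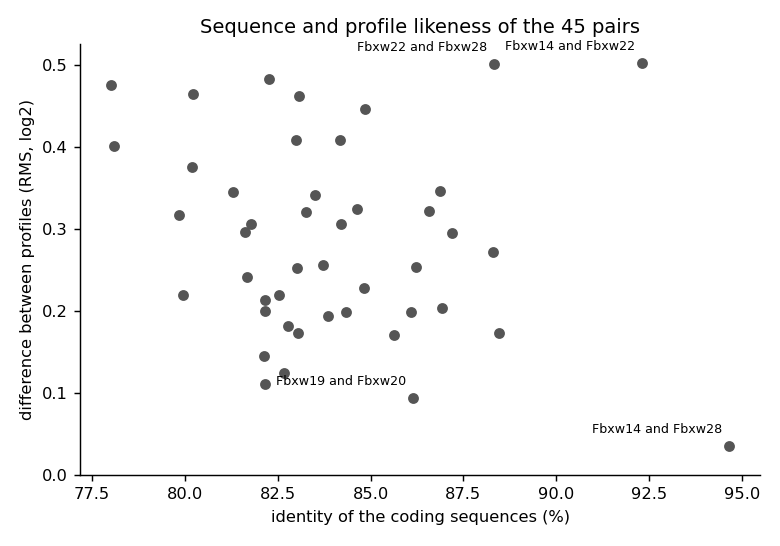
Identity of the coding sequences in percent against the RMS difference between expression profiles (log2) for the 45 pairs of the 10 Fbxw genes, each point being a pair. Fbxw14 and Fbxw28 lie alone at the lower right (94.6%, 0.035), and Fbxw14 and Fbxw22, next in identity (92.3%), lie at the top (0.502).

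Among 2550 other tested genes with a mean of at least 5 FPKM, the profiles nearest to that of the summed members were those of Gm11974 (RMS 0.092), Gm4745 (0.102), Coprs (0.104), Mrps18b (0.112) and Tmem243 (0.112), against a median RMS of 0.578. Gm4745 was at 10173, 10042 and 11912 FPKM in WT and at 10146, 5404 and 4508 FPKM in Lsm14b-KO, near the level of Fbxw14. Coprs, which encodes a partner of the arginine methyltransferase PRMT5, was at 29.1, 29.1 and 30.3 FPKM in WT and at 26.7, 12.5 and 13.2 FPKM in Lsm14b-KO. Mrps18b encodes a protein of the mitochondrial ribosome and was at 113 to 121 FPKM in WT and at 121, 52.8 and 61.3 FPKM in Lsm14b-KO. The log2 fold changes of the 5 genes ran from -0.81 to -0.66 and none was called. Without Lsm14b-KO replicate 1 all 5 were called lower, with a median of -1.06, against 28.7% of all genes tested in that fit. The 5 genes were picked for their likeness to the summed members over these same libraries. Both outcomes follow from that choice and are no separate evidence.

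The 3 listed Fbxw genes of the row that are no members were of like abundance. Fbxw24 was at 13780, 12435 and 13167 FPKM in WT and at 15254, 7645 and 7880 FPKM in Lsm14b-KO, with overlapping groups (log2 fold change -0.43 ± 0.32 SE, limma adjusted p = 0.327). Fbxw26 was at 1287, 1200 and 1460 FPKM in WT and at 1098, 564 and 335 FPKM in Lsm14b-KO (-1.15 ± 0.44 SE, limma adjusted p = 0.0942). Fbxw27 was at 5299, 4801 and 4994 FPKM in WT and at 3933, 1350 and 860 FPKM in Lsm14b-KO (-1.60 ± 0.52 SE, limma adjusted p = 0.0608), a lower estimate than that of any member. For Fbxw26 and Fbxw27 every Lsm14b-KO library was below every WT library, while Fbxw24 was highest in Lsm14b-KO replicate 1. Without that library all 3 were called lower by limma, against 28.7% of all genes tested in that fit. The log2 fold changes were -0.76 for Fbxw24 (limma adjusted p = 0.00626), -1.59 for Fbxw26 (limma adjusted p = 0.00148) and -2.22 for Fbxw27 (limma adjusted p = 0.000175). Lsm14b-KO replicate 1 was the highest of its group for all 3, so these calls are no separate evidence. The genes next to the row were near or at 0, with Plxnb1 at no more than 0.0601 FPKM and Spink8 listed at 0 in every library but WT replicate 2 (2.65 FPKM).

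Of the other Fbxw genes elsewhere in the genome and Btrc, 10 in all, 3 reached 1 FPKM, and Fbxw2, Fbxw5, Fbxw7, Fbxw8, Fbxw9, Fbxw11 and Fbxw17 did not. Fbxw4 was called lower, at 18.3, 21.1 and 24.6 FPKM in WT and 9.77, 12.0 and 9.48 FPKM in Lsm14b-KO (log2 fold change -0.97 ± 0.25 SE, limma adjusted p = 0.0304). Unlike in the row on chromosome 9, Lsm14b-KO replicate 1 lay with the other Lsm14b-KO libraries here, though the call was lost without any one WT library or without Lsm14b-KO replicate 3 (adjusted p = 0.0884 to 0.124) and with TPM scaling (adjusted p = 0.478). Fbxw10 was at 1.25 to 2.03 FPKM in WT and 0.258 to 1.07 FPKM in Lsm14b-KO (-0.72 ± 0.25 SE, limma adjusted p = 0.0680). Btrc, which encodes the F-box protein beta-TrCP that marks the protein EMI1 for degradation, was at 0.302 to 0.755 FPKM in WT and 0.828 to 2.45 FPKM in Lsm14b-KO (0.70 ± 0.27 SE, limma adjusted p = 0.0989). Without Lsm14b-KO replicate 1 limma called Fbxw10 lower (-0.92, adjusted p = 0.0131) and Btrc higher (0.91, adjusted p = 0.0203). In that fit 1800 of all 6280 genes were called lower and 1152 higher. Each of these genes then reached 1 FPKM only in the group where it was higher, Fbxw10 in WT and Btrc in Lsm14b-KO. Btrc passed the filter only through Lsm14b-KO with all libraries as well.

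Of 30 genes for the SCF core, its ubiquitin-conjugating enzymes, the COP9 signalosome and the NEDD8 pathway that switches cullins on, 25 were tested. Of these, 2 were called lower and 1 higher, against 975 lower and 408 higher (21.6% together) of all 6398 tested genes. The median log2 fold change of the list was 0.01. Without Lsm14b-KO replicate 1, 6 of the 25 were called lower and 4 higher, against 1800 lower and 1152 higher of all 6280 genes in that fit. Uba3, the catalytic subunit of the NEDD8-activating enzyme, was at 8.89, 7.78 and 7.02 FPKM in WT and at 2.89, 1.63 and 1.66 FPKM in Lsm14b-KO (-1.56 ± 0.23 SE, limma adjusted p = 0.00520). Glmn, whose product binds RBX1 and blocks cullin ligases, was at 60.7, 58.2 and 49.3 FPKM in WT and at 36.9, 13.3 and 15.8 FPKM in Lsm14b-KO (-1.44 ± 0.40 SE, limma adjusted p = 0.0378). Dcun1d4, a gene of the family that promotes NEDD8 transfer to cullins, was at 0.195 to 0.294 FPKM in WT and at 1.16, 1.07 and 0.740 FPKM in Lsm14b-KO (0.66 ± 0.19 SE, limma adjusted p = 0.0456). Dcun1d4 reached 1 FPKM only in Lsm14b-KO libraries, so it passed the filter through the group where it was higher. The groups did not overlap in these 3 genes. The Uba3 call was present without each library in turn, whereas that of Dcun1d4 was lost in each case (adjusted p = 0.0709 to 0.129) and that of Glmn in each case but the one without Lsm14b-KO replicate 1 (adjusted p = 0.0748 to 0.144). The Glmn call was also lost with TPM scaling (-0.78, adjusted p = 0.0643) and with quantile normalization (adjusted p = 0.0738).

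The subunits that join the F-box protein to the ligase, named here after their values were seen, did not pass the test with all libraries. Skp1a, the adaptor, was at a level like that of Fbxw15, with 15542, 14798 and 13047 FPKM in WT and 22477, 3662 and 7836 FPKM in Lsm14b-KO (-0.74 ± 0.58 SE, limma adjusted p = 0.356). Rbx1 was at 230, 229.8 and 127 FPKM in WT and at 268, 38.8 and 71.0 FPKM in Lsm14b-KO (-1.05 ± 0.66 SE, limma adjusted p = 0.260). In both genes Lsm14b-KO replicate 1 was the highest of all libraries and replicates 2 and 3 the lowest. Cul1, the scaffold, went the other way in replicates 2 and 3, at 37.0, 37.3 and 55.9 FPKM in WT and at 34.1, 185 and 136 FPKM in Lsm14b-KO (1.14 ± 0.60 SE, limma adjusted p = 0.185). Without Lsm14b-KO replicate 1 limma called Skp1a (-1.43, adjusted p = 0.00487) and Rbx1 (-1.83, adjusted p = 0.00322) lower and Cul1 higher (1.87, adjusted p = 0.000799). In that fit 1800 of all 6280 genes were called lower and 1152 higher. The library left out was the highest of all for Skp1a and Rbx1 and the lowest for Cul1, so these calls are no separate evidence.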

How the data were processed

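The data were 6 RNA-Seq libraries, 3 of WT and 3 of Lsm14b-KO GV-stage FGOs, grouped by their titles and genotype labels. The RNA of each pool of oocytes was amplified by Smart-seq2. The labels name more than one library kit and state no strandedness. According to the submitters' processing notes, reads were aligned to mm10 with TopHat2 (version 2.0.13) and expression was computed with Cufflinks (version 2.2.1). The annotation used, and how reads matching several paralogs were divided, is not given in the sources used here. The authors deposited 1 FPKM column per library for 24255 genes, and their fold change, p-value and q-value columns from Cuffdiff were not used. FPKM carries no read counts, so no counting interval was computed. Steps among the low values put the depths at 1.03 to 1.14 times that of WT replicate 1 for the other WT libraries and at 1.33 to 2.17 times for Lsm14b-KO. A listed 0 can be a failed estimate.

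The 6398 genes that reached 1 FPKM in at least 1 library were tested as log2(FPKM + 1) with limma 3.58.1 in R 4.3.3 (lmFit, eBayes with trend), genotype as the only term, two-sided, with Benjamini-Hochberg adjustment over all of them and a threshold of 0.05. A fold change on this scale understates that of low genes. The script was tested on simulated data. Alternatives changed the pseudocount, filter, scaling, trend, replicate block and libraries. A correction for length and GC content (values found for 98.8% of tested genes), TPM scaling joined with leaving out Lsm14b-KO replicate 1, and the 13-gene sum were added after the data had been seen. The genes named were Lsm14b, the 10 members, each tested other Fbxw gene and Btrc, up to 6 called genes of the SCF list, and the 5 genes of most similar profile. Skp1a, Rbx1, Cul1, Plxnb1, Spink8 and single marker genes fall outside this rule and were named after their values were seen. The members and lists were chosen with earlier results of these data known. Sequence identities came from global alignments with Biopython 1.88.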

Additional observations from a re-analysis of the deposited data

How the results depend on the processing

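The members' calls depended on 1 library. Members called numbered 0 with all libraries and 0 to 10 when each library was left out in turn, with the 10 reached without Lsm14b-KO replicate 1, and 3 with that library left out and TPM scaling. The other alternatives gave 0. The log2 difference of the members' sum, -0.70, became -0.0099 with TPM scaling and -0.043 with quantile normalization. Estimates that turned from below to above 0 were those of Fbxw14 (0.20 with TPM scaling, 0.036 with quantile normalization, 0.22 with TPM scaling without Lsm14b-KO replicate 1), Fbxw28 (0.20, 0.033 and 0.24 in the same order), Fbxw21 (0.15, 0.20 and 0.0029) and Fbxw24 (0.26, 0.17 and 0.18). Under every other single alternative all 10 estimates stayed below 0, and the length and GC correction brought their median from -0.88 to -0.47.

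Over all tested genes 1383 were called, 720 without a filter on low values, 321 to 2952 with each library left out (321 without Lsm14b-KO replicate 3, 408, 426 and 537 without WT replicates 1, 2 and 3, 915 without Lsm14b-KO replicate 2, and 2952 without Lsm14b-KO replicate 1) and 3659 with TPM scaling without Lsm14b-KO replicate 1. The share of calls that were higher was 29.5%, against 63.2% with TPM scaling, 42.4% with quantile normalization and 41.1% with the length and GC correction. In the SCF list, 3 genes were called, 1 without the filter, 5 with TPM scaling, 5 with the length and GC correction, 17 with TPM scaling without Lsm14b-KO replicate 1, and 1 to 10 with each library left out. Among the other Fbxw genes and Btrc, 1 was called, 0 without the filter, with TPM scaling, with quantile normalization and with the replicate block, 2 with TPM scaling without Lsm14b-KO replicate 1, and 0 to 6 with each library left out. The cause of these shifts was not tested.

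Replicate numbers were not taken to pair the libraries: same-numbered WT and Lsm14b-KO libraries correlated at 0.19, -0.13 and 0.02 in their deviations from the group means, and not every library correlated best with its own number. With the number as a replicate block, 1244 genes and 0 members were called. With 3 libraries per group, wide confidence intervals limit what the members' test can show, and the FPKM values carry no counting error.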
